A study of Mus musculus with 2 samples.

Results

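Oligodendrocytes numbered 114 of the 3915 cells kept from mouse brain tissue that had been sorted for GLAST and against O4. They were selected on measured values: at most 10% of a cell's UMIs from mitochondrial genes, at least 5 UMIs in all from the myelin genes Mag, Mog, Cldn11, Mal and Ermn, and under 40 UMIs per 10000 from the astrocyte genes Slc1a2, Aldoc, Ntsr2, Cldn10 and Gja1. A UMI is a molecular tag by which each captured transcript is counted once. Library 1 held 105 of these cells among 1840, or 5.71% (95% exact binomial interval 4.69 to 6.87%), and library 2 held 9 among 2075, or 0.434% (0.199 to 0.822%). The cells came from the lateral subventricular zone, the stem cell niche along the lateral ventricle, of male C57BL/6 mice of 2 months (tissue of 4 mice pooled) or 22 months (8 mice pooled), with no treatment named. Live cells were sorted positively for GLAST and negatively for O4, Ter119 (erythroid cells) and CD45 (leukocytes), and 1 droplet library was made per age, so that the sort itself can set the share of oligodendrocytes. No label ties a library number to an age, so values are given for library 1 and library 2 and no age is compared. With 1 library per age, and cells of a library not being replicates, no test between groups is possible, and every interval covers counting error only.

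Oligodendrocytes wrap axons in myelin, a stack of membrane rich in galactolipids and held together by proteins such as myelin basic protein. They arise from precursors marked by Pdgfra and Cspg4, pass through a premyelinating stage, and are specified and maintained by the transcription factors Olig2, Sox10, Nkx2-2 and Myrf. The O4 antibody binds sulfatide, a sulfated galactolipid of late precursors and oligodendrocytes, while GLAST is a glutamate transporter of astrocytes and radial glia-like stem cells encoded by Slc1a3.

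Oligodendrocytes carried 1525 to 41087 UMIs each in library 1 (median 4263, against 4493 in the other cells) and 1541 to 8330 in library 2 (median 5119). Oligodendrocytes had 850 to 7064 genes per cell in library 1, and after thinning every cell to 2000 UMIs the median was 1078.5 genes against 1127 in the other cells. The library totals were 10440891 and 13330251 UMIs. The libraries shared 4 barcodes, and 0 oligodendrocytes carried one of them. Clustering on 2000 variable genes outside every gene list used here placed 103 of the 105 oligodendrocytes of library 1 and all 9 of library 2 in a single cluster, which held no other cell. The other 2 fell in clusters made up of cells that were not oligodendrocytes.

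The rule left few cells near its threshold. In library 1 the marker UMIs ran from 5 to 118 per oligodendrocyte (median 53), and 98 of the 105 had at least 20. The cell with 5 marker UMIs had a depth of 10908 UMIs and was one of those outside the common cluster, and the next lowest had 11. Just below the threshold, 4 cells of library 1 had 4 marker UMIs and 11 had 3, while no cell of library 2 had 3 or 4. In library 1, 1 further barcode passed the marker minimum but had 42.9 astrocyte UMIs per 10000, at a depth of 56406 UMIs. In library 2 the 9 cells had 22 to 161 marker UMIs. The scatter of marker against astrocyte UMIs shows the gap.

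**Figure D1:**
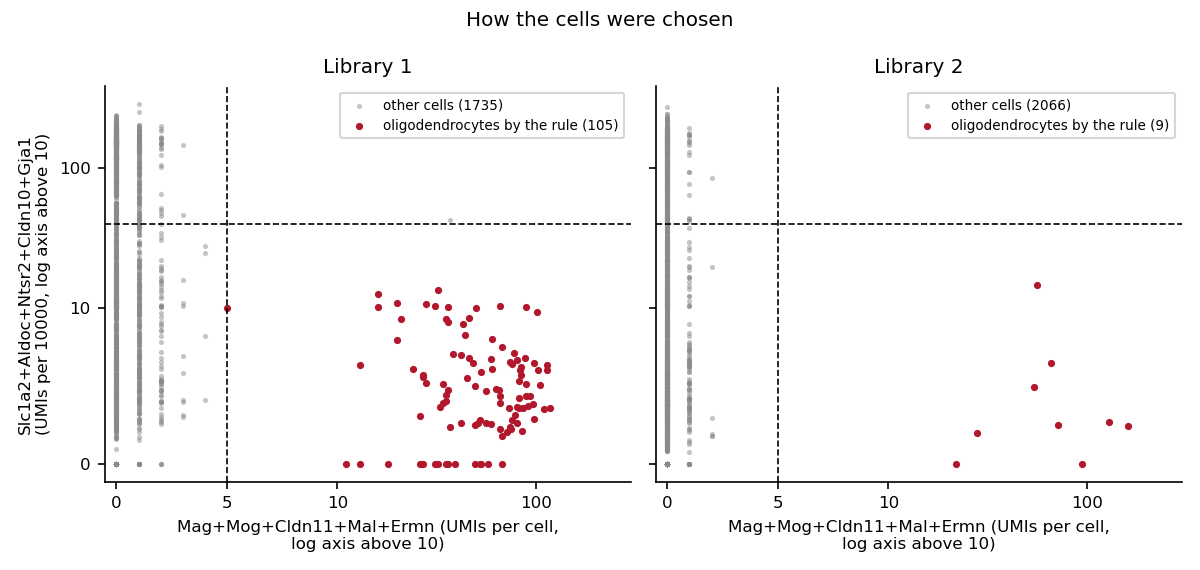
Each point is 1 kept cell of library 1 (left) or library 2 (right), placed by its UMIs of the 5 myelin genes and its UMIs per 10000 of the 5 astrocyte genes. Dashed lines mark the minimum of 5 and the ceiling of 40 that chose the cells, and the chosen cells of library 2 start at 22 marker UMIs.

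Depth set 6 cells of library 1 apart from the other oligodendrocytes. These 6 had more than 10000 UMIs (10908 to 41087, against at most 8344 in the other 99) and held 20.4% of all UMIs of the 105 cells. Their marker UMIs were 4.58 to 39.9 per 10000, while the other 99 had 53.5 to 217 (median 132). The groups did not overlap. These values rest on the genes of the rule and on the depth that divided the cells. A minimum of 5 UMIs admits deeper cells at a lower rate. The 6 also carried 70.4% of the cell cycle UMIs, 57.0% of the neuroblast marker UMIs and 63.2% of the stem and neurogenic factor UMIs of all 105. The doublet caller Scrublet marked 15 of the 1849 barcodes of library 1 (0.811%) and 11 of the 2088 of library 2 (0.527%), among them 2 oligodendrocytes, both among these 6. Values below include the 6 cells unless stated. This division by depth was made after the data were seen.

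Levels are CPM: the UMIs of a gene summed over the cells of a class and scaled to a common class total, with exact 95% Poisson intervals. They were compared with all other cells of the same library. A gene was counted as higher or lower at a ratio of at least 2, with no test. In library 1, 5128 genes had enough counts (20 UMIs in the oligodendrocytes, or 20 expected from the other cells), of which 793 (15.5%) were higher and 1063 (20.7%) lower in oligodendrocytes, with a median log2 ratio of -0.26. In library 2, 511 genes qualified, 156 (30.5%) higher and 200 (39.1%) lower, with a median of -0.42. Dividing every ratio of library 1 by the median ratio turned the split to 965 higher and 772 lower. Without the 6 deep cells 4408 genes qualified, 843 (19.1%) higher and 1224 (27.8%) lower. A gene with under 20 UMIs expected qualified only through its level in oligodendrocytes, which fixed its direction as upward. Counts of measured genes found higher, here and below, include such genes. Because the cells were chosen by gene levels in the same libraries, these counts and the ratios that follow describe the chosen cells.

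The 5 genes of the rule had the levels that chose them. Mal, a proteolipid of myelin membrane rafts, stood at 2660.2 CPM (interval 2524 to 2801) in library 1 and 3821 CPM (3288 to 4417) in library 2, against 8.6 and 1.89 CPM in the other cells. Mag, the myelin-associated glycoprotein facing the axon, stood at 1584 CPM (interval 1480.0 to 1694) in library 1 and 1649.5 CPM (1306 to 2056) in library 2, against 9.92 and 1.28 CPM in the other cells. Mog, on the outer face of myelin, was found in 102 of 105 cells, Cldn11, the tight junction protein of myelin, in 105, and Ermn, a cytoskeletal protein of the outer myelin tongue, in 104. The astrocyte genes stood lower, from 5.17-fold (Ntsr2) to 27.5-fold (Gja1).

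RNA of these 5 markers was also found in cells of other classes, at different levels in the libraries. All other cells of library 1 together had 67.8 CPM (62.8 to 73.1) of marker UMIs, 0.613% of the level in its oligodendrocytes, and 29.3% of them had at least 1 marker UMI. In library 2 the level was 10.3 CPM (8.68 to 12.2), 0.0727% of the level in its oligodendrocytes, and 6.34% of cells had one. Every gated class was limited to cells with fewer than 5 marker UMIs, so the level there was capped in advance. Under this cap the level was alike in 2 gated classes of library 1. It was 70.8 CPM (61.5 to 81.2) in 769 cells gated as astrocytes by the 5 astrocyte genes. In 321 cells gated as neuroblasts by Dcx, Stmn2, Tubb3, Dlx6os1 and Igfbpl1 it was 77.6 CPM (63.3 to 94.2). The corresponding levels in library 2 were 10.4 CPM (6.51 to 15.7) and 13.8 CPM (8.98 to 20.1). Free RNA cannot be told from expression in these counts, and the source of marker UMIs outside the oligodendrocytes was not tested. A fold over all other cells depends on the level found there.

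Slc1a3, which encodes the GLAST antigen, was lower in oligodendrocytes than in the other cells. It stood at 242 CPM (interval 202 to 287) in library 1 and 188 CPM (85.9 to 357) in library 2, against 1118 and 829 CPM in the other cells. Without the 6 deep cells it stood at 156 CPM (121 to 198) in library 1, a log2 ratio of -2.85 in place of -2.21. Single oligodendrocytes of library 1 held 0 to 12.7 Slc1a3 UMIs per 10000, with a median of 1.35. A UMI was found in 53 of the 105, or 50.5% at a median depth of 4263 UMIs, against 35.8% of the cells gated as neuroblasts at a median of 3232. Thinned to 2000 UMIs, the shares were 28.6% of 98 oligodendrocytes (7 shallower ones left out) and 21.2% of 292 neuroblasts. The level in cells gated as neuroblasts was 202 CPM (178 to 227), which overlapped the interval of oligodendrocytes with or without the 6, and the level in cells gated as astrocytes was 2534 CPM (2477 to 2593). In library 2, 7 of 9 oligodendrocytes had a Slc1a3 UMI. How much of the Slc1a3 in oligodendrocytes was free RNA was not tested.

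The enzymes that make the lipid recognised by O4 were found in cells that had passed a sort against it. Ugt8a, which makes galactosylceramide, stood at 553 CPM (interval 492 to 619) in library 1 and 793 CPM (561 to 1089) in library 2, against 3.34 and 2.49 CPM in the other cells, and was found in 89 of 105 and 9 of 9 cells. Gal3st1, which adds the sulfate that turns galactosylceramide into sulfatide, stood at 115 CPM (interval 87.9 to 147) in library 1 and 83.5 CPM (22.8 to 214) in library 2, against 2.43 and 1.66 CPM in the other cells, and was found in 43 and 4 cells. These are transcript levels, and sulfatide on the cell surface was not measured here. Ptprc, which encodes CD45, had 0 UMIs in the oligodendrocytes of both libraries, which allows up to 5.55 CPM in library 1 and 62.6 CPM in library 2 at 3 counts.

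Transcription factors of the lineage were higher as a group. In library 1, 10 of 13 measured factors were higher and 1 lower, the median log2 ratio being 3.59 (11 and 1 without the 6 deep cells), and of 3 measured in library 2 all 3 were higher. Sox10, which activates myelin genes, stood at 312 CPM (interval 267 to 363) in library 1 and 313 CPM (175 to 517) in library 2, against 6.27 and 5.81 CPM in the other cells. Myrf, the membrane-bound factor needed for myelination, stood at 139 CPM (interval 109 to 174) in library 1 and 271 CPM (145 to 464) in library 2, against 1.62 and 0.453 CPM in the other cells. Nkx6-2 stood at 734 CPM (interval 663 to 809.8) in library 1 and 919 CPM (668 to 1233) in library 2, against 38.5 and 29.6 CPM in the other cells. The deacetylase gene Hdac11 was 16.3-fold higher, Zfp536 32.2-fold, St18 5.3-fold, Nkx2-2 3.92-fold and Zeb2 2.08-fold. Nkx2-9 had 22 UMIs in 15 oligodendrocytes (40.7 CPM, 25.5 to 61.6) and 2 UMIs in the other cells (0.202 CPM, 0.0245 to 0.731). Tcf7l2, the Wnt effector that peaks in premyelinating cells, was the lower one, at 22.2 CPM (11.5 to 38.8) against 75. Zfp488 had 3 UMIs and was not counted.

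Olig1 and Olig2, the paired helix-loop-helix factors, were lower in oligodendrocytes than in the cells gated as precursors. The precursor gate was a minimum of 3 UMIs in all from Pdgfra, Cspg4, C1ql1, Cacng4 and Lhfpl3. It took 21 cells in library 1 and 39 in library 2. Their depth ran from 1668 to 38698 UMIs (median 3604) in library 1 and from 1992 to 16709 (median 4288) in library 2. Summed levels can rest on the deepest of them, and the part of depth was not tested. The gate set no astrocyte ceiling. Astrocyte UMIs reached 104 per 10000 in library 1 and 93.9 in library 2, so it shared cells with the astrocyte gate. Olig1 stood at 1013 CPM (930.0 to 1102) in oligodendrocytes of library 1 and 2245 CPM (1989.6 to 2524) in precursors, and at 1315 (1011 to 1683) and 2038 (1850 to 2239.7) in library 2. Olig2 stood at 135 CPM (106 to 169.7) in oligodendrocytes and 601 CPM (473 to 754) in precursors of library 1, and at 167 (72.1 to 329) and 548 (453 to 658) in library 2. For both genes the intervals did not overlap in either library. Against all other cells Olig1 was 12-fold higher, while Olig2 (1.98-fold) and Sox8 (1.87-fold) stayed under the 2-fold limit. Without the 6 deep cells Olig2 stood at 156 CPM (121 to 198) and passed it, at 2.28-fold. Sox10 intervals of oligodendrocytes and precursors overlapped in both libraries, at 312 and 216 CPM in library 1. Nkx6-2 went the other way from Olig2, with 56.1 CPM (22.6 to 116) in precursors of library 1 and 95.8 CPM (84.9 to 108) in astrocytes.

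**Figure D2:**
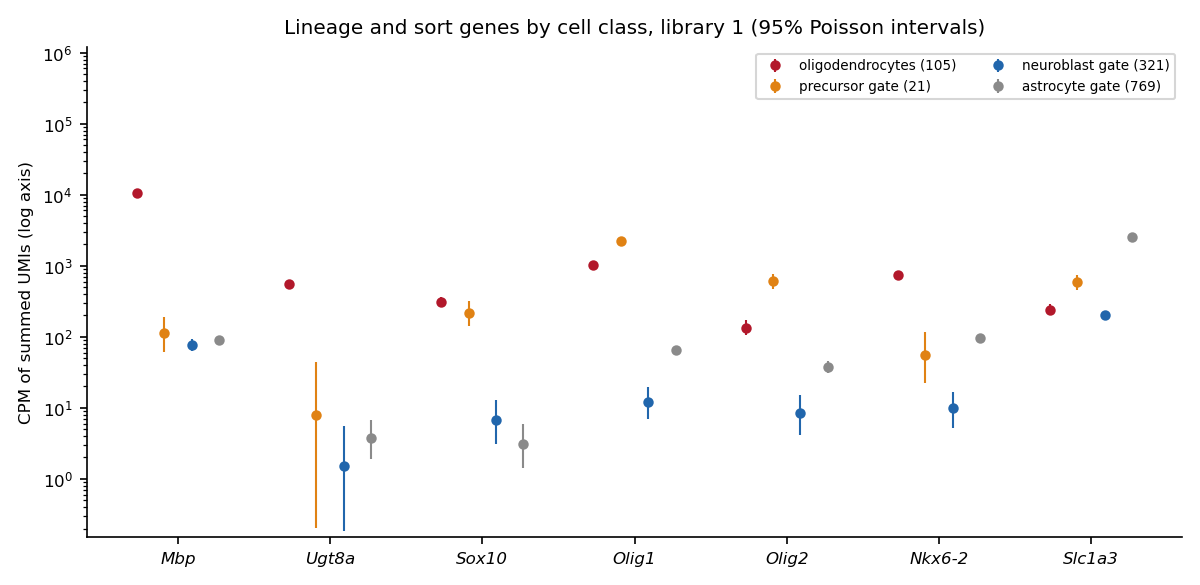
Points give the CPM of summed UMIs in library 1 for 7 genes (log axis) in oligodendrocytes and in 3 gated classes, with 95% Poisson intervals. Olig1 and Olig2 were highest in the precursor gate, Mbp, Ugt8a and Nkx6-2 in oligodendrocytes, and Slc1a3 in the astrocyte gate. The precursor gate set no astrocyte ceiling and shared cells with the astrocyte gate.

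Markers of mature oligodendrocytes were higher, and most markers of earlier stages were low or not found. Of 18 mature oligodendrocyte markers 16 were measured, 14 were higher and 0 lower, with a median log2 ratio of 4.76, and all 6 measured in library 2 were higher. The highest were Trf, the iron carrier transferrin (171-fold), Apod, a secreted lipocalin (134-fold), Klk6, a secreted protease (87.1-fold), and Ptgds, prostaglandin D synthase (76.5-fold). Anxa5 (1.28-fold) and Grm3 (1.27-fold) were not counted as changed. Of the 10 precursor markers 2 were measured: Matn4, a matrix protein, was 4.42-fold higher and Serpine2, a protease inhibitor, 13.9-fold lower. Pdgfra, Cspg4, Emid1 and Tmem100 had 0 UMIs in the 105 cells, where 3 counts would be 5.55 CPM. Without the 6 deep cells, 3 counts would be 2.65-fold (Cspg4) and 1.56-fold (Emid1) above the level in the other cells. For Pdgfra and Tmem100 they would be 1.18-fold and 5.27-fold below it. The zeros of Cspg4 and Emid1 therefore cannot show a lower level. Of the 6 markers of committed precursors, Sox6 was 5.33-fold lower and Fyn 1.86-fold lower, the latter under the limit, and Gpr17, Neu4, Bmp4 and Tnr had too few counts.

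Some genes of earlier stages remained detectable. Enpp6, a phosphodiesterase of newly formed oligodendrocytes, had 33 UMIs in 25 of the 105 cells (61 CPM, 42 to 85.7) and 2 UMIs in the 1735 other cells (0.202 CPM, 0.0245 to 0.731). Bcas1, a myelin-associated protein of the same stage, stood at 140.5 CPM (111 to 176) against 2.63 and was found in 52 cells. Of the 10 genes on that list 3 were measured, 2 higher and, with Tcf7l2, 1 lower. Of 6 measured markers of myelin-forming cells 4 were higher, led by Evi2a, a small membrane protein (109.6-fold), and Opalin, a myelin glycoprotein (95.8-fold), and 2 were lower, Birc2 (2.58-fold) and Ctps (4.17-fold, 6 UMIs, of which 4 were in the 6 deep cells). Over the 5 genes measured without the deep cells, 4 were higher and 1 lower, and the median log2 ratio was 3.27 in place of 2.45.

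Structural genes of the myelin sheath were all higher in library 1. In library 1 each of the 14 membrane genes measured passed 2-fold (median log2 ratio 6.09), and 12 of 13 did in library 2. Mbp, which compacts the membrane from inside, stood at 10574 CPM (interval 10302 to 10852) in library 1 and 12507 CPM (11526 to 13550.3) in library 2, against 87.9 and 16.3 CPM in the other cells, and was found in all 105 cells, from 0.917 to 264 UMIs per 10000 with a median of 124. Ppp1r14a, an inhibitor of myosin phosphatase, was 117-fold higher. At the lower end, the tetraspanin gene Cd9 was 2.19-fold and the proteolipid gene Gpm6b 2.09-fold higher, both being common in the other cells, at 379.9 and 861 CPM.

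Lipid enzymes of myelin and of general cholesterol synthesis differed in this comparison. Of 13 measured enzymes of myelin lipids 10 were higher and 0 lower (median log2 ratio 3.89). Besides Ugt8a these included Aspa, which frees acetate from N-acetylaspartate (151-fold), Fa2h, which hydroxylates the fatty acids of galactolipids (106-fold), and Elovl7, a fatty acid elongase (92.9-fold). The lysosomal genes Gm2a and Asah1 had log2 ratios of -0.31 and -0.38. Of 15 measured cholesterol synthesis genes 1 was higher, Ebp (3.26-fold), and 1 lower. The median of these 15 was -0.18, beside -0.26 for all genes tested.

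Genes for contact with axons, for the cytoskeleton and for channels were mostly higher. All 11 measured axon contact genes passed 2-fold (median log2 ratio 3.52), among them Hapln2, which links hyaluronan to matrix at nodes of Ranvier (116-fold), Ninj2, an adhesion protein (71.7-fold), Lgi3 (68.5-fold) and Cntn2, an adhesion molecule of the juxtaparanode (65.9-fold). Of 16 measured cytoskeleton genes 14 were higher and 0 lower, led by Sept4, a septin (91.9-fold), Tppp, which bundles microtubules (68.9-fold), and Tubb4a, a tubulin (49.4-fold). Of 10 measured junction and channel genes 9 were higher (median 5.94): Kcna1, a voltage-gated potassium channel, stood at 251 CPM (interval 211 to 297) in library 1 and 355 CPM (207 to 568) in library 2, against 1.01 and 0.528 CPM in the other cells. The gap junction gene Gjb1 was 121-fold higher and the potassium channel gene Kcnk13 89.8-fold. Hepacam, which is also an astrocyte adhesion gene, was 1.54-fold higher and not counted.

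Iron genes numbered 10, of which 5 were measured, 3 higher and 0 lower. All 14 metabolic support genes were measured, 6 higher and 2 lower. Fth1, the ferritin heavy chain, stood at 27907 CPM (interval 27463 to 28356) in library 1 and 34870.1 CPM (33218 to 36584) in library 2, against 1900.4 and 1633 CPM in the other cells, or 2.79% of the UMIs of oligodendrocytes in library 1. Each of the 105 cells held it, from 19.3 to 604 UMIs per 10000 (median 301). Ftl1, the ferritin light chain, had a log2 ratio of -0.17, and the median of the iron genes was 1.94 (3.10 over 4 genes without the 6 deep cells). Gatm, which makes the creatine precursor, was 72.2-fold higher, Adssl1, of the purine nucleotide cycle, 86.6-fold, Qdpr, which regenerates tetrahydrobiopterin, 23.5-fold, and the lactate transporter gene Slc16a1 3.62-fold. The lactate dehydrogenase genes Ldha and Ldhb were 2.71-fold and 2.44-fold lower. Of 12 mitochondrial genome genes 0 were counted as changed (median 0.19), and of 71 nuclear genes of oxidative phosphorylation 1 was lower (median -0.07).

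Receptor genes of the lineage numbered 15, of which 9 were measured, 7 higher and 1 lower. Those rare in the other cells were measured only through their level in oligodendrocytes. S1pr5, a receptor for sphingosine 1-phosphate, was 104-fold higher, Lpar1, for lysophosphatidic acid, 97.9-fold, and the orphan receptor genes Gpr62 and Gpr37 93.5-fold and 25.3-fold. Fgfr3, a fibroblast growth factor receptor, was the lower one, with 5 UMIs (9.24 CPM, 3.0 to 21.6) against 99 CPM. Its log2 ratio was -3.42, or -4.41 without the 6 deep cells.

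Outside the rule, the 25 genes with the highest ratios (of those reaching 50 UMIs in the oligodendrocytes of library 1) ranged from 110-fold to 256-fold. Beside genes already described they held Insc, an adaptor for spindle orientation (256-fold, 56 UMIs against 4), Spock3, a secreted proteoglycan (159-fold), Ndrg1 (138-fold), Pex5l, a partner of HCN channels (123-fold), Pde8a, a cyclic AMP phosphodiesterase (121-fold), Galnt6, which starts O-linked glycosylation (111-fold), and Tnni1, the slow-muscle troponin I (139.5-fold). Klhl4, Tmem125, Tmem151a, Smco3 and Gm15440 were also among them, at 233, 183, 149, 121 and 121-fold. A UMI of a given gene of the 25 was found in 36.2 to 100% of the 105 cells, and no single cell gave more than 6.76% of the UMIs of any of them. In library 2 all 25 had an interval in oligodendrocytes above that in the other cells.

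**Figure D3:**
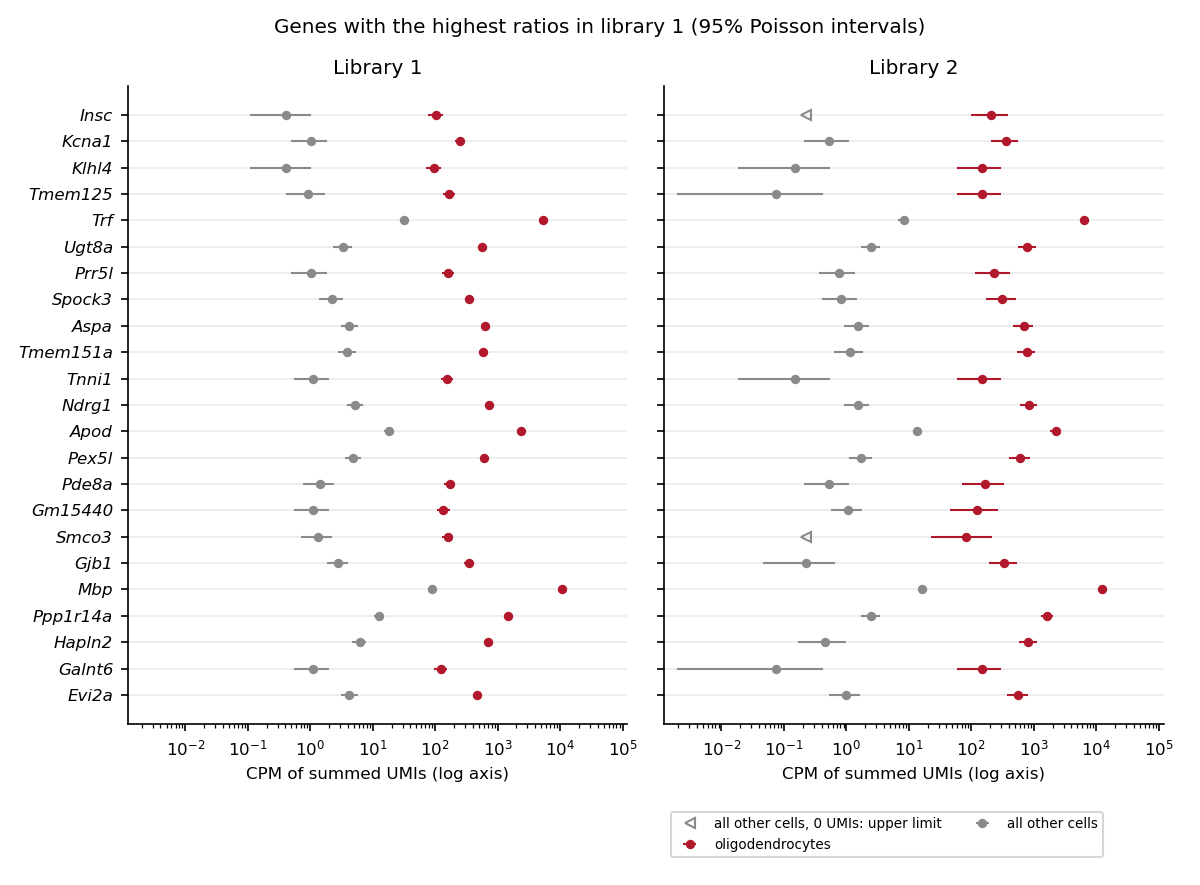
Red points give the CPM in oligodendrocytes and grey points that in all other cells (log axis), for library 1 (left) and library 2 (right), with 95% Poisson intervals, genes in the order of their ratio in library 1. Open triangles mark the limit of 3 counts where a gene had 0 UMIs, and in library 2 each plotted gene had an interval in oligodendrocytes above the other cells.

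Because these genes were high together, the 250 bases upstream of the annotated start are shown for some of them. They are the rule gene with the highest ratio, Mal, and 2 of the 25 highest genes, Apod and Prr5l. Apod and Prr5l are not typical of the set, since both hold ACAAAG and only 4 of the 20 windows at hand do. The sequences are RefSeq's, on GRCm38.p6, read 5′ to 3′ on the strand of the gene, and lie at chr2:127656696-127656945 (minus strand) for Mal, chr16:31314809-31315058 (minus strand) for Apod and chr2:101883028-101883277 (minus strand, the first of 3 listed starts) for Prr5l, whose protein binds the kinase complex mTORC2. Each window ends next to the annotated start of the gene. Prr5l was 161-fold higher. Capitals mark ACAAAG, letters of a SOX motif, or TGGCAC, letters of a MYRF motif, or the reverse complement of either.
Mal: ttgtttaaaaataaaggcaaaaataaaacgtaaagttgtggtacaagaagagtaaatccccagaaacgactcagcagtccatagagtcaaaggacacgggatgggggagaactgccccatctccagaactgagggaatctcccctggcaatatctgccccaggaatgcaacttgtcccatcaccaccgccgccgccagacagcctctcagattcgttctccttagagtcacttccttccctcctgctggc
Apod: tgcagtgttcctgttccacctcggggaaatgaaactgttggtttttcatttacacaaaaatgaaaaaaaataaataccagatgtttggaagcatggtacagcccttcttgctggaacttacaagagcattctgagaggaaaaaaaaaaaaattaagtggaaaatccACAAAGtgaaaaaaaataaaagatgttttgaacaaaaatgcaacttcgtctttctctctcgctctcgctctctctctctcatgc
Prr5l: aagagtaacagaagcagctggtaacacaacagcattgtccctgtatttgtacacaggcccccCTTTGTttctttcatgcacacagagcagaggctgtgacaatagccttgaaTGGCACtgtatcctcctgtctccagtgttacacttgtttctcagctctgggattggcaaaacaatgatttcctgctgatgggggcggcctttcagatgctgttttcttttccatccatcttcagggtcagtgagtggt
Searched on both strands, ACAAAG was in 4 of the 20 windows at hand for the 25 highest and 5 rule genes (Apod, Gjb1, Mag, Prr5l) and in 16.5% of all 27025 windows of the same length. TGGCAC was in 4 of the 20 (Hapln2, Mag, Prr5l, Tmem151a) and in 11% of all windows. The matches shown do not overlap each other, and a match is a description of the sequence only.

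Genes of stem cells, neuroblasts, astrocytes and the cell cycle were lower. Of 16 stem and neurogenic transcription factors 15 were lower and 0 higher (median log2 ratio -2.01, or -3.30 without the 6 deep cells). Id4, an inhibitor of helix-loop-helix factors, was 19.7-fold lower and Hes1, a Notch target, 6.97-fold lower (log2 ratio -2.80, or -3.83 without the 6). Hes5, another Notch target, stood at 958 CPM (877 to 1044) in 85 cells against 2190.0 CPM. Without the 6 it stood at 395 CPM (338 to 459) in 79 cells, and its log2 ratio moved from -1.19 to -2.47. Nfix was the factor not counted, at a log2 ratio of -0.26.

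Of 15 neuroblast markers 14 were lower (median -2.33, or -3.59 without the 6 deep cells), and of 19 astrocyte and quiescent stem cell markers 18 were lower (median -2.62). Apoe, a lipid carrier, was 2.51-fold lower but had UMIs in all 105 cells, at 3912 CPM against 9829.5. Aqp4, the astrocyte water channel, had 3 UMIs (5.55 CPM, 1.14 to 16.2) against 86.7 CPM, and Dlx5, a neurogenic homeobox factor, 3 UMIs (5.55 CPM, 1.14 to 16.2) against 66.9. Of 19 cell cycle genes 17 were lower (median -1.39), and all 17 measured without the 6 deep cells were (median -3.66). The proliferation gene Mki67 had 13 UMIs in 5 of the 105 cells, 11 of them in the deep cells (log2 ratio -2.06, or -4.43 without the 6), and Top2a, the mitotic topoisomerase, had 50 UMIs in 11 cells, 44 of them in the deep cells (-1.38, or -4.11).

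The 12 lowest genes among those with at least 50 UMIs expected were 12.1-fold to 33.3-fold lower. Ntm, an adhesion protein, had 4 UMIs (7.39 CPM, 2.01 to 18.9) against 246 CPM. After Ntm and Id4 came Gpm6a (17.2-fold), the long noncoding RNA Meg3 (15.5-fold), Prex2, a Rac exchange factor (14.3-fold), Lxn, a carboxypeptidase inhibitor (14-fold), Bcan, the proteoglycan brevican (14-fold), Serpine2, Nkain4 (13.6-fold), Nrxn3, a neurexin (13.3-fold), Sfxn1, a mitochondrial serine carrier (13.1-fold), and the noncoding RNA Dlx6os1 (12.1-fold). In library 2, 8 of the 12 had 0 UMIs and 4 had 1 UMI in the oligodendrocytes, a depth at which single genes cannot be ranked. Without the 6 deep cells the log2 ratios moved from -5.06 to -5.73 for Ntm, -3.84 to -4.51 for Prex2 and -3.81 to -6.07 for Lxn. They moved from -3.81 to -4.58 for Bcan, -3.74 to -4.99 for Nrxn3 and -3.60 to -4.27 for Dlx6os1, each of these further from 0. Serpine2 moved the other way, from -3.80 to -3.47.

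Stress, immune and translation genes differed from list to list. Of 22 immediate early and stress genes 18 were lower and 1 higher (median -1.97, or -2.84 without the 6 deep cells). The higher one was Hspa1a, a heat shock protein gene, with 24 UMIs in 6 cells, and its near-identical copy Hspa1b had too few counts. Cyr61, a secreted early response protein, was 9.51-fold lower (log2 ratio -3.25, or -4.34 without the 6) and Atf3 6.8-fold. Of 5 measured apoptosis and stress genes 1 was lower, Gadd45g (log2 ratio -1.59, or -2.60 without the 6), and 3 were without the 6 deep cells. Of 6 measured MHC class I genes 0 were higher and 1 lower, Psme1, a proteasome activator (3.08-fold), and H2-D1 had a log2 ratio of 0.01. Of 30 interferon response genes 3 were measured: Xaf1 was 8.57-fold higher, Ifitm3 6.06-fold lower and Ifi27 not counted at 1.31-fold. Of 81 ribosomal protein genes 6 were lower and 0 higher (median -0.67), but 42 were lower without the 6 deep cells (median -1.02) and 64 of 80 in library 2.

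Reactive glia genes numbered 17, of which 7 were measured, 4 higher and 3 lower. Il33, an alarmin kept in the nucleus, stood at 1011 CPM (interval 928 to 1099.6) in library 1 and 355 CPM (207 to 568) in library 2, against 35.7 and 7.92 CPM in the other cells. Sgk1, a hormone-responsive kinase, was 27.5-fold higher and C4b, a complement component, 2.05-fold. Vim, a glial filament protein, was 5.02-fold lower (log2 ratio -2.33, or -3.58 without the 6) and Cdkn1a, a cell cycle inhibitor, 3.71-fold. Of 7 measured long noncoding RNAs 1 was higher, Neat1 (9.48-fold), and 4 were lower (median log2 ratio -1.37). In library 2, 3 were measured, 2 higher and 1 lower, and the median over these 3 had the other sign, at 1.23. Malat1 had a log2 ratio of 0.02 in library 1, where it made up 4.70% of the UMIs of oligodendrocytes and 4.65% of those of the other cells. In library 2 it made up 8.22% and 3.49%.

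**Figure D4:**
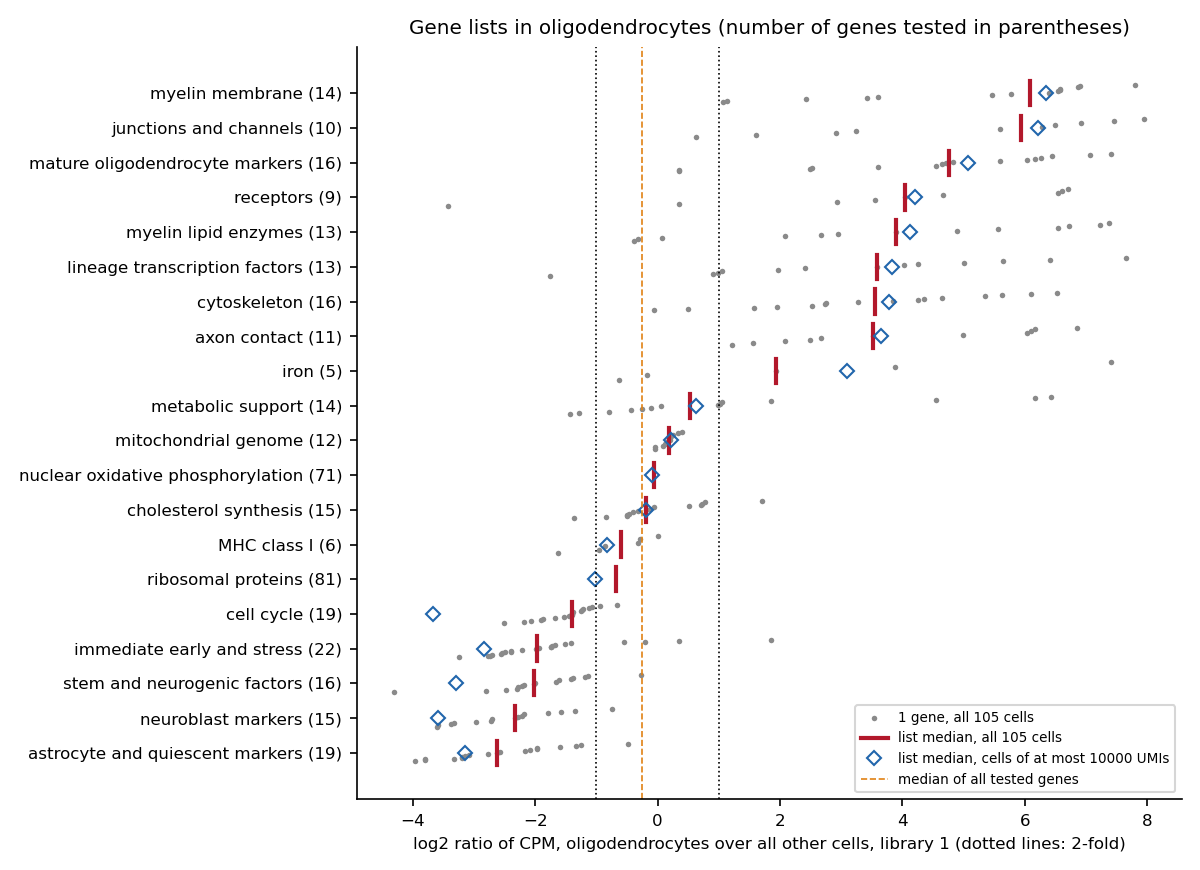
Grey points are the log2 ratios of single measured genes in library 1, grouped by list (points are not drawn for the ribosomal and oxidative phosphorylation lists). Red bars are the list medians over all 105 oligodendrocytes and blue diamonds those over the 99 of at most 10000 UMIs, which sat lower for the cell cycle (-3.66 against -1.39) and neuroblast lists; the dashed line is the median of all tested genes (-0.26).

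Markers of other cell types that the tissue could hold were near 0 in the 105 oligodendrocytes, and their part in the ratios was not tested. The 14 microglia markers gave 15 UMIs in all (27.7 CPM summed, against 54.2 CPM in the other cells), and 11 of the 14 were at 0, among them Cx3cr1, P2ry12, Csf1r and Tmem119. The 8 endothelial markers gave 20 UMIs, 17 of them Kdr (37 CPM summed, against 7.08 CPM in the other cells), and Cldn5, Flt1 and Cdh5 were at 0. The 8 ependymal markers gave 13 UMIs (24 CPM summed, against 73.2 CPM in the other cells), with 5 at 0. The 9 markers of mature neurons gave 20 UMIs (37 CPM summed, against 116 CPM in the other cells), with 3 at 0. The mural, choroid plexus and erythroid markers had 0 UMIs.

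Oligodendrocytes were not uniform in the mature markers, and differed with Klk6. Among the 99 cells of at most 10000 UMIs in library 1, 16 had a Klk6 UMI and 83 had none. This division was chosen after the values had been seen, so the differences describe it and are given with no test. The 16 were also deeper, with a median of 6760 UMIs (1815 to 8344) against 3967 (1525 to 7105), and the part of depth in the differences was not tested.

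S100b, a calcium-binding protein, stood at 1834 CPM (1574 to 2125) in the cells with Klk6, 15 of 16, and at 179.5 CPM (137 to 231) in those without, 17 of 83. Hopx, a small homeodomain protein, was found in 11 of 16 against 2 of 83, at 249 CPM (159 to 370.1) and 5.98 CPM (0.725 to 21.6). Enpp6, listed above for newly formed oligodendrocytes, was also higher, at 155 CPM (87.0 to 256) in 10 of 16 and 47.9 CPM (27.4 to 77.7) in 14 of 83. It had 15 UMIs in the cells with Klk6, under the minimum of 20. Apod stood at 5617 CPM (5154 to 6110.1) and 2089 CPM (1936 to 2249), and per cell from 19.9 to 123 UMIs per 10000 against 2.59 to 59.8, so the cells overlapped, and the values of library 2 had the opposite order. Of 890 genes with enough counts for this division, 29 were at least 2-fold higher in the cells with Klk6, Klk6 among them, and 14 lower. The other higher genes included Plpp2, a lipid phosphatase (log2 ratio 2.15), Plin3, a lipid droplet protein (1.36), and Serpinb1a, a protease inhibitor (1.17). Sepp1, the selenium carrier (1.20), and Tppp3, a tubulin-binding protein (1.15), were also higher. These are a selection and not the highest ranks: Map2k2 (1.51) and Ttc3 (1.43), for example, stood above Plin3.

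The opposite pattern was found for Ptgds and Opalin. Ptgds stood at 2363 CPM (2066 to 2690.2) in the cells with Klk6 and 13178 CPM (12791 to 13573) in those without, with medians of 2.73 and 116 UMIs per 10000. Opalin stood at 207 CPM (127 to 320.1) in 8 of 16 cells and 1750.4 CPM (1611 to 1898) in 79 of 83. The tetraspanin genes Cd9 and Cd63 (log2 ratios -2.12 and -1.46), Sgk1 (-1.51) and Lgi3 (-1.18) were also lower. Mbp differed less, at 11068 CPM (10414 to 11752) and 12902 CPM (12520.1 to 13293).

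Library 2 held 2 oligodendrocytes with Klk6 and 7 without. The 2 had 8 and 28 S100b UMIs, while the 7 had 0 to 2. The 2 had 0 and 0 Ptgds UMIs, while the 7 had 0 to 72, and 0 and 3 Opalin UMIs, while the 7 had 1 to 13. The groups did not overlap for S100b, and overlapped in UMIs for Ptgds and Opalin. How many of all genes separate 2 cells from 7 in this way was not counted. The direction of library 1 was also found for Sepp1 (4127 CPM, 3100.0 to 5384, against 1293 CPM, 943 to 1730.0). The values of the 2 cells were lower, against the direction of library 1 and with overlapping intervals, for Apod (1910.4 CPM, 1236 to 2820.2, against 2385 CPM, 1899 to 2956), Plin3 (229 CPM, 47.3 to 670.0, against 402 CPM, 219.9 to 675), Serpinb1a (306 CPM, 83.3 to 783, against 661 CPM, 419 to 992) and Tppp3 (993 CPM, 529 to 1699, against 1207 CPM, 869.7 to 1631). The direction also turned for Plpp2 (1 UMI against 4) and Sgk1 (3 UMIs against 2, or 229 and 57.5 CPM). Hopx had 0 UMIs in all 9 cells. The plots of single cells by Klk6 show both libraries.

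**Figure D5:**
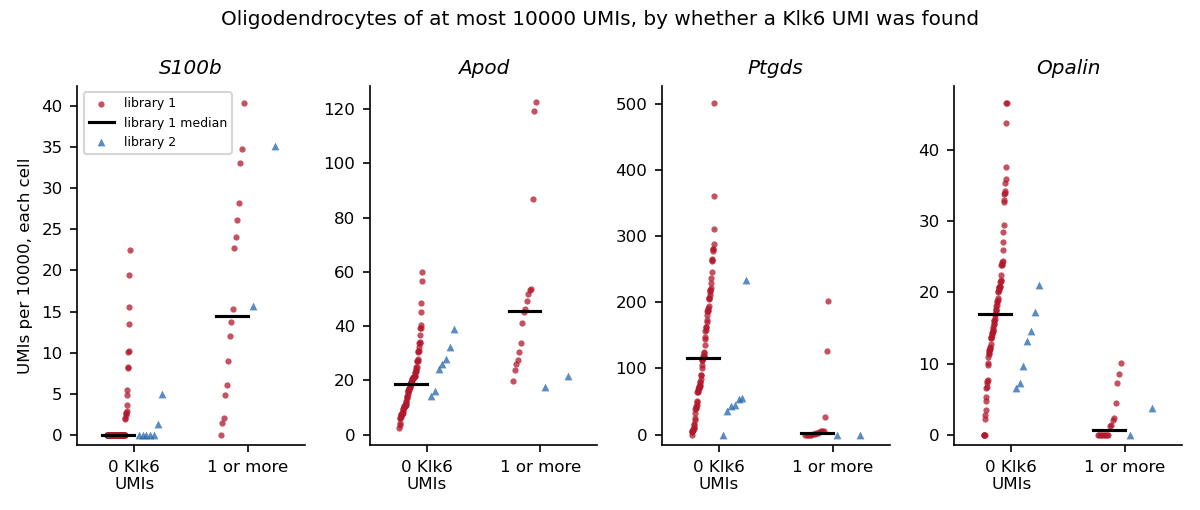
Each point is 1 oligodendrocyte of at most 10000 UMIs, by its UMIs per 10000 of S100b, Apod, Ptgds and Opalin, divided by whether a Klk6 UMI was found (16 and 83 cells in library 1, circles, with the median as a bar; 2 and 7 in library 2, triangles). In the cells with Klk6, S100b and Apod sat higher and Ptgds and Opalin lower in library 1, while Apod in library 2 was lower in value (1910.4 against 2385 CPM).

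Mature markers of single cells were set side by side for the libraries. Apod ranged from 0 to 123 UMIs per 10000 in library 1 (median 19.9) and from 14.4 to 38.9 in library 2 (median 24.3). Car2, carbonic anhydrase, had medians of 43.9 and 44.5, and Trf of 51.1 and 63.3. Il33 ranged from 0 to 38.2 (median 10.9) in library 1 and from 0 to 9.3 (median 2.4) in library 2, and Ptgds from 0 to 502 (median 80.1) and from 0 to 233 (median 43.9). The ranges of single cells overlapped for each of the 5 genes, and with 9 cells of 1 library the difference between libraries was not tested.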

How the data were processed

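Single-cell RNA was captured in droplets with a 3′ kit from GLAST-sorted cells, 1 library per age. The matrix deposited by the authors holds unnormalized UMI counts, 1 value for each gene and barcode. Cell Ranger 2.0.0 and the builds GRCm38.p3 and mm10 are named in the submitters' processing notes; how barcodes were called as cells is not given in the sources used here. The 2 libraries were told apart by barcode suffix. UMIs were summed per class and library and divided by the class total, with exact Poisson intervals; shares have Clopper-Pearson intervals. PCR duplicates are removed by UMIs, but intervals and limits cover counting error only. A class at 0 was set to 3 counts in ratios. Named genes were the 25 highest and 12 lowest ratios (at least 50 UMIs, seen or expected), the rule, sort and lineage factor genes, and up to 4 highest and 2 lowest per list. Members and lists were chosen with earlier results of these data known. Gene positions came from GENCODE vM21 and promoters from RefSeq. Cells were clustered with scanpy 1.11.5 (30 components, 15 neighbours, resolution 1) and doublets marked with Scrublet at an expected rate of 1.5%, without removal. The ratio step was tested on simulated data. Other marker, astrocyte and mitochondrial limits, filters, weightings and references were tried. Some genes are not reported here.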

Additional observations from a re-analysis of the deposited data

Results flagged for a closer look

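Barcodes above the mitochondrial ceiling were left out of every comparison, and some of them carried oligodendrocyte transcripts. In library 1, 2 of the 9 barcodes removed for this reason had at least 5 UMIs of the rule markers, with 18 and 19 marker UMIs at depths of 1555 and 1577 UMIs. In library 2, 2 of 13 did, with 29 and 40 marker UMIs at depths of 1713 and 2323 UMIs. Mbp had 2 to 16 UMIs in these 4 barcodes, whose mitochondrial share was 11.7 to 16.7%.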

How the results depend on the processing

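No paired analysis was possible because there is 1 library per age and no replicate number. No library could be left out for the same reason. Library 1 held 81 to 118 oligodendrocytes under the other limits of the rule and library 2 held 8 or 9. The counts of genes higher and lower (793 and 1063) became 156 and 200 in library 2, 473 and 457 with a minimum of 50 UMIs, and 2343 and 2938 with a minimum of 1 UMI, which changes how many genes are tested. Each of the other settings kept both counts within 1.5 times. Among named genes, and list medians over at least 5 measured genes, 811 values stayed inside their main interval, 232 moved outside it, and no called value changed sign. The medians of cholesterol synthesis and nuclear oxidative phosphorylation, both near 0, changed sign on dividing by the median ratio (0.08 and 0.19). The long noncoding RNA median, over 3 genes in library 2, turned there from -1.37 to 1.23. With 9 cells, library 2 cannot show differences in single genes of low level. Leaving out cells above 10000 UMIs and dividing by the median ratio were chosen after seeing the data.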

Other observations

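Kdr and Foxj1, listed under other cell types, had higher levels in the oligodendrocytes than in the other cells of library 1, and were chosen after their values were seen. Kdr, a receptor of vascular endothelial growth factor, had 17 UMIs in 14 of the 105 oligodendrocytes of library 1 (31.4 CPM, 18.3 to 50.3) and 2 UMIs in the 1735 other cells (0.202 CPM, 0.0245 to 0.731), and 2 UMIs in the 9 oligodendrocytes of library 2, while the endothelial genes Cldn5, Flt1 and Cdh5 had 0. Foxj1, the ciliogenesis factor, had 8 UMIs in 8 oligodendrocytes of library 1 (14.8 CPM, 6.38 to 29.1) against 3.74 CPM (2.64 to 5.16), while the ependymal genes Ccdc153, Tmem212 and Dynlrb2 had 0, and it had 0 UMIs in the oligodendrocytes of library 2.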
